A study of Mus musculus with 12 samples.

Results

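The genes described here are 40 of the 54532 listed in a table of mouse macrophage RNA counts: the transcription factor ATF4 (Atf4), its partners and target genes, and 12 cytosolic aminoacyl-tRNA synthetases. The rule lists them by symbol, as genes known to belong to the ATF4 pathway, and all 40 were found and were abundant enough to be tested. The list was chosen with earlier results of these data known. Shares of its members set beside those of all genes therefore describe the list and are no independent support. RNA was sequenced from bone marrow-derived macrophages (BMDMs), cells grown from mouse bone marrow, in a study of how the membrane glycoprotein GPNMB affects the filling of macrophages with lipid. Control mice (WT) were compared with mice that carry the R150X form of Gpnmb (R150X), and their cells were left alone or were given oxidised low-density lipoprotein (OxLDL), with 3 libraries in each of the 4 groups. The strain label was the same for all groups, a DBA/2 by C57BL/6 cross that was backcrossed to C57BL/6. How much OxLDL was given and for how long, any batch, and whether the 3 libraries of a group came from separate mice or cultures were not stated. A p-value here therefore measures the spread between libraries, which may be technical, and a batch that followed genotype or treatment cannot be told apart from it.

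ATF4 is the effector of the integrated stress response. When amino acids run short or proteins misfold, kinases phosphorylate the initiation factor eIF2, most translation slows, and the Atf4 mRNA is translated more, so its protein is controlled apart from its mRNA level. ATF4 dimerises with C/EBP family proteins and turns on genes that make serine, glycine and asparagine, import amino acids, charge tRNAs and, under lasting stress, feed back on the pathway or promote cell death. In macrophages the pathway is known to respond to nutrient supply, oxidised lipids and inflammatory signals.

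Levels are in CPM, which puts the counts of every library on one common scale of depth. Total counts ran from 14838969 to 18222868 per library, and 3 counts corresponded to 0.158 to 0.209 CPM. Gpnmb, the mutated gene, was at 5305 to 5374 CPM in untreated WT and 363.2 to 410.6 CPM in untreated R150X, and at 12350 to 12620 and 691.1 to 723.6 CPM with OxLDL, so every library matched its genotype label. Replicate 1 of untreated R150X stood apart from replicates 2 and 3, with chi-square values per degree of freedom of 9.23 and 10.1 against 2.31 to 4.76 within the other pairs of a group. Counts that rest on it are given with and without it; in the comparisons that use it, leaving it out ended no member's call and added 5.

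Most of these genes fell with OxLDL in WT, and most of those that passed the test rose in R150X. In WT, 29 fell and 5 rose (72.5% and 12.5%), where 23.1% of all 15338 genes tested fell and 22.7% rose. In R150X, 21 rose and 8 fell (52.5% and 20%), against 18.4% and 20.6% of all genes, so the share that fell was near the background and the share that rose was not. The median log2 fold change of the set was -0.28 in WT and 0.17 in R150X, beside medians over all genes of 0.0136 and 0.00386. The difference of the responses, R150X minus WT, was tested as an interaction term: 24 members had a higher response in R150X and 2 a lower one (60% and 5%), beside 3.13% and 5.19% of all genes. A higher response means a greater log2 fold change, sign included: a larger rise, a smaller fall, or a rise in place of a fall. Slc7a5 and Aldh1l2, for example, are among the 24 but fell in both genotypes, by less in R150X. Its median over the set was 0.33, with 35 members above 0 and 5 below, and over all genes -0.0173. A gene was called at an adjusted p under 0.05 in edgeR's two-sided quasi-likelihood test with Benjamini-Hochberg adjustment over all genes tested.

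The same 4 groups can be read by genotype, which rearranges the values behind the interaction and is no second result. The falls in WT and the lower levels in untreated R150X both rest on the untreated WT libraries. In untreated cells 21 members were lower in R150X and 6 higher (52.5% and 15%), beside 14.8% and 18.1% of all genes, with a median log2 fold change of -0.18. With OxLDL 21 were higher in R150X and 3 lower (52.5% and 7.5%), beside 6.10% and 6.92% of all genes, with a median of 0.18. The share that was higher in untreated R150X and the share that was lower in R150X with OxLDL were near their backgrounds. Without replicate 1 of untreated R150X the counts were 24 lower and 6 higher in untreated cells, 22 rising and 8 falling with OxLDL in R150X, and 25 higher and 2 lower in the interaction.

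**Figure D1:**
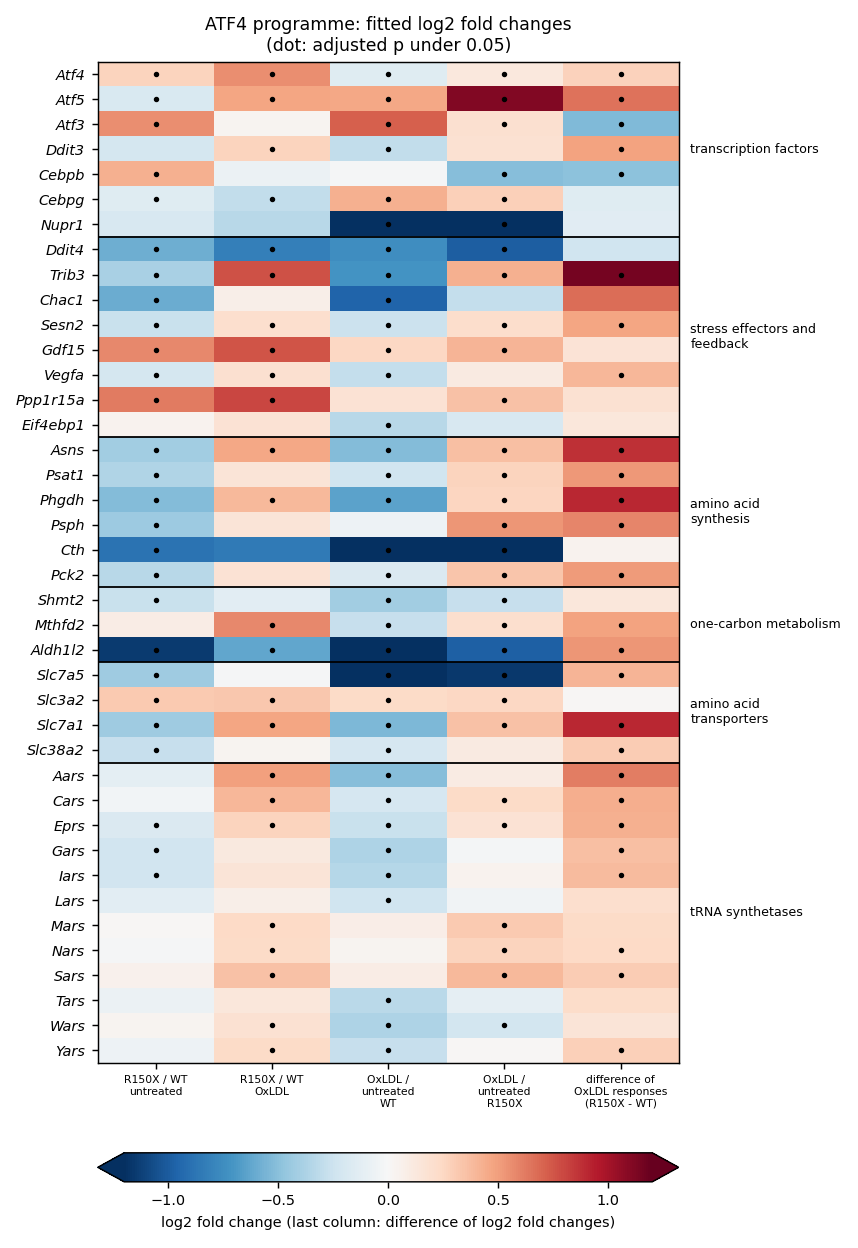
Fitted log2 fold changes of the 40 genes (rows, by role) in the 4 comparisons and, in the last column, the difference of the OxLDL responses (R150X minus WT); a dot marks an adjusted p under 0.05, and colours saturate at the ends of the scale. The OxLDL column is mostly blue in WT, where 29 members fell, and mostly red in R150X, where 21 rose.

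Members that passed the test in both genotypes and in opposite directions formed a small class across the genome. Falling in WT and rising in R150X was seen for 44 genes, 0.287% of those tested, and 11 of them were members: Atf4, Trib3, Sesn2, Asns, Psat1, Phgdh, Pck2, Mthfd2, Slc7a1, Cars and Eprs. These OxLDL comparisons share no library. The count was 12 without replicate 1 of untreated R150X, with Ddit3 added. It was 7 without replicate 1 of untreated WT, where Atf4, Cars, Pck2 and Psat1 dropped out. Being lower in untreated R150X and higher in R150X with OxLDL was seen for 41 genes, 0.267%, of which 8 were members: Atf5, Trib3, Sesn2, Vegfa, Asns, Phgdh, Slc7a1 and Eprs. Without replicate 1 of untreated R150X that count was 11, with Ddit3, Iars and Pck2 added, and without replicate 1 of untreated WT it was 6, with Atf5 and Eprs dropped. One fit covers all groups, so leaving out a library also shifts the p-values of comparisons that do not use it. The call of Atf4 in R150X ended this way without replicate 1 of untreated WT (adjusted p = 0.0597, its value still 0.13). With OxLDL, the R150X against WT values of Iars (0.15) and Pck2 (0.17) passed this way without replicate 1 of untreated R150X, at adjusted p = 0.0225 and 0.0311, as did those of Nupr1 (-0.33) and Cth (-0.85), at adjusted p = 0.00898 and 0.0448. By sign alone, 18 of the 40 had a value below 0 with OxLDL in WT and above 0 in R150X.

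**Figure D2:**
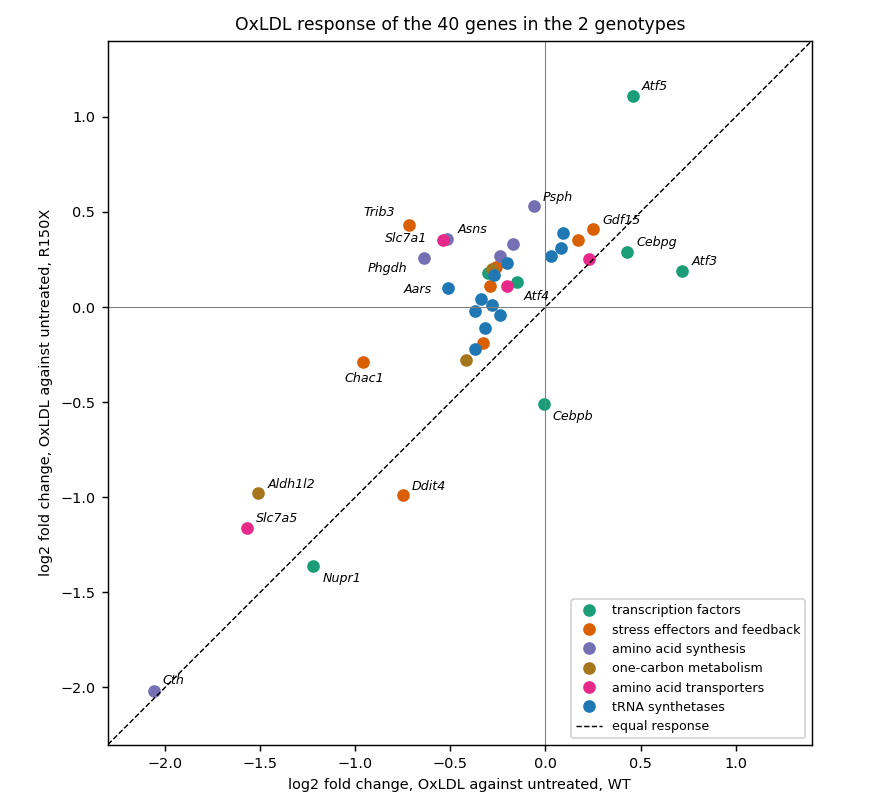
Log2 fold change with OxLDL in WT (horizontal axis) against that in R150X (vertical axis) for the 40 genes, coloured by role, with the line of equal response dashed. The 35 genes above the line include Trib3, Slc7a1, Asns and Phgdh at the upper left, and Atf3 and Cebpb lie farthest below it.

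Other cell types were checked by marker genes, since BMDM cultures can hold them. The 9 macrophage markers, among them Adgre1, Csf1r and Cd68, were present in every group and summed to 19800 to 20100 CPM in untreated WT, 21600 to 22500 in untreated R150X, 23800 to 25400 in WT with OxLDL and 20100 to 21400 in R150X with OxLDL. In the interaction 8 of the 9 were lower, beside 5.19% of all genes. The 11 stromal markers, collagens among them, summed to 15100 to 15300 CPM in untreated WT, 10400 in each untreated R150X library, 7060 to 7680 in WT with OxLDL and 6950 to 7280 in R150X with OxLDL. Their summed level was lower with OxLDL in both genotypes. In the interaction 8 of the 11 stromal markers were higher and 1 lower, the direction of the members, beside 3.13% and 5.19% of all genes.

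Neutrophil markers (12 listed, 11 tested) summed to 659 to 695 CPM in untreated WT, 376 to 395 in untreated R150X, 245 to 258 in WT with OxLDL and 117 to 120 in R150X with OxLDL. In the interaction 7 of the 11 were lower, beside 5.19% of all genes. The 6 adipocyte markers summed to 0.633 to 0.97, 3.07 to 4.23, 2.36 to 4.36 and 38.8 to 44.3 CPM in the same order of groups, with Adig at 0 in untreated R150X and in WT with OxLDL. The 6 osteoclast markers summed to 226 to 231, 235 to 249, 172 to 178 and 189 to 199 CPM. The 6 markers of T and B cells summed to 1.44 CPM or less in every library, and Cd8a was at 0 in every group but untreated R150X. What part these cell types had in the members' values was not tested, and in bulk RNA fewer cells of a type and less RNA per cell cannot be told apart.

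ATF4 with a C/EBP partner binds a composite element whose core was searched as TGATGNAA on both strands (TTNCATCA on the other), with no second motif, in the RefSeq promoter table of GRCm38.p6, a window of 250 bases before to 50 after each gene's start. Of the 40 members 32 had an entry, Mars under its newer symbol; those without one were Eif4ebp1, Cth, Aldh1l2, Slc7a5, Cars, Lars, Nars and Wars. The letters were in 11 of the 32 windows (34.4%), those of Atf3, Nupr1, Trib3, Chac1, Asns, Pck2, Aars, Gars, Iars, Tars and Yars, against 1219 of all 27025 genes (4.51%). The share was 7 of 20 (35.0%) among members higher in the interaction and 4 of 12 (33.3%) among the other members. Among the further ATF4 targets described below it was 6 of 19 (31.6%), so it was not particular to the members. None of the windows of the other lists described below held the letters. The stretches below are from the 5 members with the smallest interaction p among the 11; each reads 5′ to 3′ along the gene, with the matched letters in capitals. They lie at chr6:7693210-7693278 (minus strand, Asns), chr2:152344028-152344057 (minus, Trib3), chr8:111033684-111033783 (plus, Aars), chr1:191183390-191183489 (minus, Atf3) and chr14:55540117-55540216 (plus, Pck2).
Asns: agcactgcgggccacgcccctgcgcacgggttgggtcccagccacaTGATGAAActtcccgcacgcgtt
Trib3: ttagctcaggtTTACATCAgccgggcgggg
Aars: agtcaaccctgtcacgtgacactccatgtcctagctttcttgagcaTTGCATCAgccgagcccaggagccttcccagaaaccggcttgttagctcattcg
Atf3: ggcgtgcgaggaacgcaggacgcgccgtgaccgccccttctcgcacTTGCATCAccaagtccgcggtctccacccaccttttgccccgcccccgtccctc
Pck2: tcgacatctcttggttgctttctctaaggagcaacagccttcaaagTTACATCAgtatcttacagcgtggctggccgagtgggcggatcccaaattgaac
The match begins at base -23 in Asns, -112 in Aars, -110 in Atf3 and -103 in Pck2, counted from the start, and at base 15 after the start in Trib3. Aars holds a second match, TTTCATCA at base 10 after its start, outside the stretch shown. Asns reads the element forward, and in the other 4 it is on the opposite strand. A match describes the letters and is no measurement of binding.

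Of the 7 transcription factors, 3 had a higher OxLDL response in R150X and 2 a lower one, so this group did not move one way. Counts by role, here and below, are to be read beside the shares of all genes given above for each comparison. In the interaction these were 3.13% higher and 5.19% lower. Atf4 (chromosome 15, 80255184 to 80257541 of GRCm38, plus strand) was at 194, 185 and 199 CPM in untreated WT, 172, 173 and 174 CPM in WT with OxLDL, 248, 220 and 230 CPM in untreated R150X and 252, 258 and 253 CPM in R150X with OxLDL. Every R150X library was above every WT library of the same treatment. The log2 fold change of R150X against WT was 0.27 untreated (SE 0.0492, adjusted p = 0.000232) and 0.56 with OxLDL (SE 0.0496, adjusted p = 5.75e-08), or 1.47-fold. Within a genotype its OxLDL changes were small, -0.15 in WT and 0.13 in R150X, and the interaction was 0.28 (SE 0.0698, adjusted p = 0.0133). The rise in R150X (adjusted p = 0.0415) was lost without replicate 2 or 3 of untreated R150X, or without any 1 of the R150X libraries with OxLDL, at adjusted p from 0.0702 to 0.2. It was also lost with library size alone (adjusted p = 0.0815), with low-count genes left in (0.122) and with only the groups compared in the fit (0.102). The fits without replicate 1, 2 or 3 of untreated WT, or without replicate 2 of WT with OxLDL, ended it as well, at adjusted p from 0.0529 to 0.0597. The fall in WT and the interaction were lost without replicate 3 of untreated WT, at adjusted p = 0.0793 and 0.0505. In untreated R150X against WT, Atf4 was 1 of 6 members that were higher (15%), while 21 were lower (52.5%). Of all genes 18.1% were higher and 14.8% lower in that comparison.

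Atf5, a close relative of ATF4 that is also translated under stress, had the largest rise of the 40 genes with OxLDL, in R150X. It was at 113, 109 and 121 CPM in untreated WT, 149, 152 and 171 CPM in WT with OxLDL, 109, 94.4 and 98.8 CPM in untreated R150X and 217, 205 and 230 CPM in R150X with OxLDL. The libraries with OxLDL lay above the untreated ones in both genotypes, and the log2 fold change was 0.46 in WT and 1.11 in R150X (2.16-fold, adjusted p = 6.21e-12). The interaction was 0.65 (SE 0.0908, adjusted p = 7.75e-05). Its lower level in untreated R150X (-0.18, adjusted p = 0.0362) was lost without replicate 1 or 3 of WT or replicate 2 or 3 of R150X, at adjusted p from 0.0693 to 0.161.

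Atf3, a stress-induced repressor and activator of the same protein family, behaved differently. Its levels were 257, 251 and 256 CPM in untreated WT, 419, 415 and 424 CPM in WT with OxLDL, 389, 356 and 381 CPM in untreated R150X and 413, 439 and 435 CPM in R150X with OxLDL. It was already high in untreated R150X (log2 fold change 0.56, adjusted p = 8.35e-09) and rose by 0.72 with OxLDL in WT but by 0.19 in R150X, so that the OxLDL groups overlapped between genotypes. The interaction was -0.53 (SE 0.0641, adjusted p = 1.61e-05). Cebpb, a partner of ATF4, had an interaction of -0.49 (adjusted p = 0.017): it was higher in untreated R150X (0.43) and fell with OxLDL in R150X (-0.51), while its value in WT was -0.01 and did not pass. That interaction was lost with DESeq2 (adjusted p = 0.0648), without replicate 1 of untreated WT (adjusted p = 0.0568) and without replicate 3 of WT with OxLDL (adjusted p = 0.0559). Of its exon bases 20.7% overlap Tmem189 on the other strand.

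Ddit3 encodes CHOP, which promotes cell death in lasting stress. It was at 31.2, 31.8 and 35.2 CPM in untreated WT, 29.4, 26.2 and 24.1 CPM in WT with OxLDL, 30.2, 29.0 and 25.7 CPM in untreated R150X and 32.1, 32.8 and 31.2 CPM in R150X with OxLDL. It fell in WT (-0.30, adjusted p = 0.00562), had a value of 0.18 in R150X that did not pass (adjusted p = 0.0852), and the interaction was 0.48 (adjusted p = 0.0119). Its higher level in R150X with OxLDL (0.27, adjusted p = 0.0371) was lost without replicate 2 or 3 of WT with OxLDL or any 1 replicate of R150X with OxLDL, at adjusted p from 0.0646 to 0.159. Cebpg, another dimer partner of ATF4, rose in both genotypes (0.43 and 0.29) and was lower in R150X with OxLDL (-0.30); its interaction of -0.15 did not pass. Its lower level in untreated R150X (-0.15, adjusted p = 0.0438) was lost without any 1 untreated WT replicate or replicate 3 of untreated R150X, at adjusted p from 0.0854 to 0.196, and with low-count genes left in (adjusted p = 0.0705). The fits without replicate 2 of WT with OxLDL, or replicate 1 or 2 of R150X with OxLDL, ended it as well, at adjusted p from 0.0528 to 0.0537.

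Nupr1, a small stress-induced chromatin protein, had the sharpest fall of these factors in both genotypes. Its levels were 37.0, 36.0 and 38.3 CPM in untreated WT, 16.4, 15.7 and 15.8 CPM in WT with OxLDL, 38.6, 29.1 and 30.4 CPM in untreated R150X and 11.6, 13.0 and 13.6 CPM in R150X with OxLDL. The untreated and OxLDL libraries did not overlap, and the log2 fold changes were -1.22 and -1.36, an interaction of -0.14 (SE 0.139) that did not pass.

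**Figure D3:**
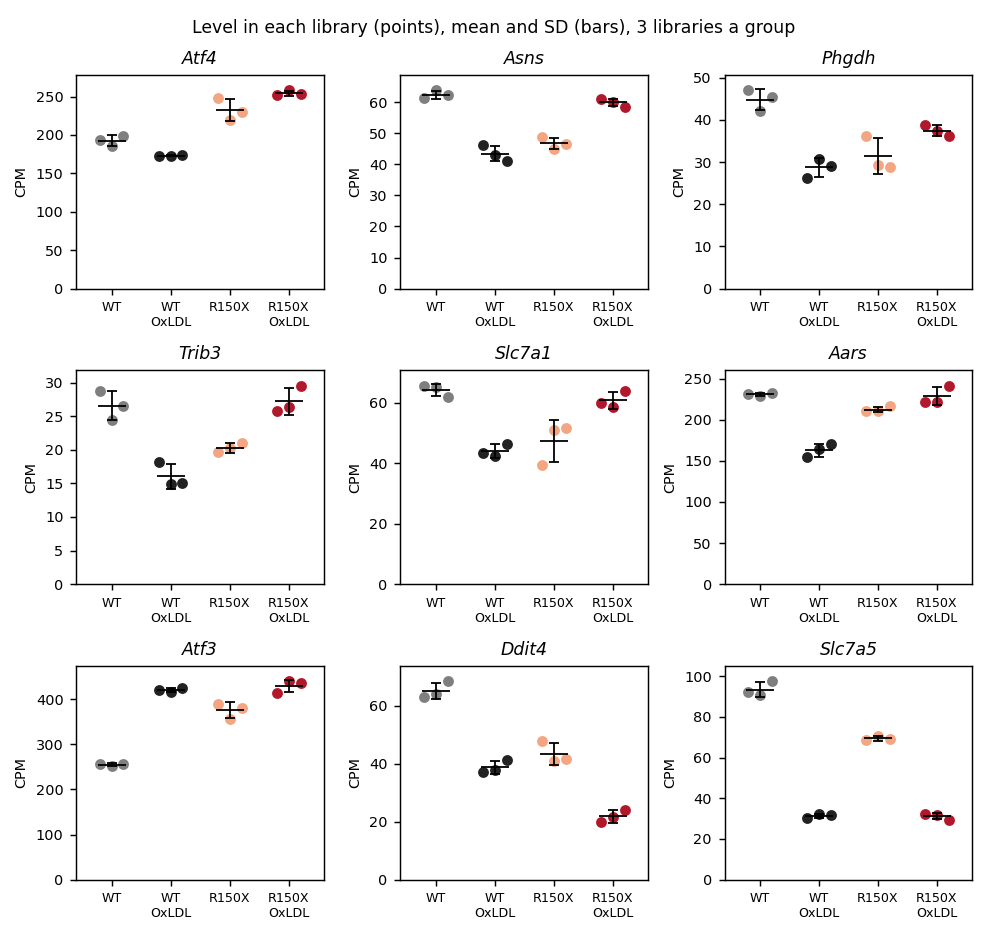
Level in CPM of 9 members in each library (points), with the mean and SD of the 3 libraries of a group. Asns, Phgdh, Trib3, Slc7a1 and Aars are lower in WT with OxLDL than in R150X with OxLDL, with no overlap, while Ddit4 and Slc7a5 are low with OxLDL in both genotypes.

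Among 8 stress effectors and feedback regulators, 3 had a higher response in R150X, none had a lower one, and the median interaction was 0.29. DESeq2 gave the same counts, and at an unadjusted p under 0.05 edgeR gave 4 higher and 1 lower. Trib3, a pseudokinase that binds ATF4 and dampens it, had the largest interaction of the 40. It was at 28.7, 24.4 and 26.5 CPM in untreated WT, 18.2, 14.9 and 15.0 CPM in WT with OxLDL, 19.6, 20.2 and 21.0 CPM in untreated R150X and 25.7, 26.4 and 29.5 CPM in R150X with OxLDL. OxLDL moved it from high to low in WT and from low to high in R150X without overlap, by log2 fold changes of -0.72 (SE 0.0931) and 0.43 (SE 0.0901). The interaction was 1.15 (SE 0.13, adjusted p = 7e-06), a 2.22-fold ratio of responses.

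Sesn2, a leucine sensor that restrains the growth kinase mTORC1, moved in the same directions with OxLDL. It was at 66.6, 64.7 and 65.5 CPM in untreated WT, 52.3, 54.9 and 57.5 CPM in WT with OxLDL, 52.3, 55.6 and 55.3 CPM in untreated R150X and 61.4, 59.4 and 68.1 CPM in R150X with OxLDL. It fell in WT (-0.26) and rose in R150X (0.21), with an interaction of 0.47 (SE 0.0849, adjusted p = 0.00111). The rise was lost without replicate 3 of R150X with OxLDL (adjusted p = 0.0695). Its higher level in R150X than in WT with OxLDL (0.20, adjusted p = 0.0335) was lost without replicate 1 or 2 of WT or replicate 1 or 3 of R150X, at adjusted p from 0.0503 to 0.203.

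Vegfa, the vascular growth factor that ATF4 can induce, was at 135, 140 and 149 CPM in untreated WT, 113, 115 and 121 CPM in WT with OxLDL, 124, 120 and 123 CPM in untreated R150X and 126, 130 and 141 CPM in R150X with OxLDL. It fell in WT (-0.29), had a value of 0.11 in R150X that did not pass, and an interaction of 0.40 (adjusted p = 0.00173). The higher level in R150X with OxLDL (0.19, adjusted p = 0.0226) was lost without replicate 1 or 2 of WT or replicate 3 of R150X, at adjusted p from 0.0847 to 0.143. Chac1, which degrades glutathione, was lower in untreated R150X (-0.60) and fell with OxLDL in WT (-0.96); its interaction of 0.67 (SE 0.214, adjusted p = 0.0574) did not pass.

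Gdf15 and Ppp1r15a were higher in R150X whatever the treatment. Gdf15, a secreted stress cytokine, was at 22.7, 23.0 and 25.1 CPM in untreated WT, 28.3, 28.0 and 27.7 CPM in WT with OxLDL, 40.4, 32.1 and 33.8 CPM in untreated R150X and 46.0, 46.5 and 48.5 CPM in R150X with OxLDL. All 6 R150X libraries lay above all 6 WT libraries. The genotype log2 fold changes were 0.58 untreated and 0.75 with OxLDL, 1.68-fold, and the interaction of 0.16 (SE 0.111, adjusted p = 0.422) did not pass. Its rise with OxLDL in WT (0.25, adjusted p = 0.0163) was lost without replicate 1 or 2 of untreated WT, at adjusted p from 0.0558 to 0.0644. Ppp1r15a encodes GADD34, which brings the phosphatase that resets eIF2. Its genotype log2 fold changes were 0.62 (adjusted p = 2.97e-05) and 0.80 (adjusted p = 2.42e-06), and its interaction of 0.18 did not pass.

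Ddit4 encodes REDD1, an inhibitor of mTORC1, and was lower in R150X under both conditions. It was at 62.9, 64.1 and 68.4 CPM in untreated WT, 37.1, 38.0 and 41.2 CPM in WT with OxLDL, 47.7, 41.0 and 41.6 CPM in untreated R150X and 19.8, 21.7 and 24.0 CPM in R150X with OxLDL. The genotype log2 fold changes were -0.59 and -0.82, and OxLDL lowered it by log2 fold changes of -0.75 in WT and -0.99 in R150X. Its interaction of -0.24 (SE 0.107, adjusted p = 0.198) did not pass. Eif4ebp1, which encodes a brake on translation, fell with OxLDL in WT (-0.33); its other values, from -0.19 to 0.17, did not pass.

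The 6 genes of amino acid synthesis were all lower in untreated R150X, and 5 of them had a higher OxLDL response in R150X, with a median interaction of 0.55. Asns, which makes asparagine and is the classical ATF4 target, had the smallest interaction p of the 40 genes. It was at 61.2, 63.8 and 62.2 CPM in untreated WT, 46.1, 43.1 and 41.2 CPM in WT with OxLDL, 48.7, 45.0 and 46.6 CPM in untreated R150X and 61.0, 60.2 and 58.6 CPM in R150X with OxLDL. The means were 62.4 ± 1.34, 43.4 ± 2.47, 46.8 ± 1.87 and 59.9 ± 1.27 CPM in that order (SD, n = 3). OxLDL lowered it in WT (log2 fold change -0.52, SE 0.0574, adjusted p = 1.56e-07) and raised it in R150X (0.36, SE 0.057, adjusted p = 3.01e-05). The interaction was 0.88 (SE 0.0809, adjusted p = 6.07e-07).

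Phgdh, Psat1 and Psph are the consecutive enzymes that make serine from a glycolytic intermediate. Phgdh was at 47.0, 42.1 and 45.4 CPM in untreated WT, 26.3, 30.8 and 29.1 CPM in WT with OxLDL, 36.3, 29.2 and 28.8 CPM in untreated R150X and 38.9, 37.3 and 36.2 CPM in R150X with OxLDL. In R150X the lowest OxLDL library was just below the highest untreated one, replicate 1. The log2 fold changes with OxLDL were -0.64 in WT and 0.26 in R150X, with an interaction of 0.90 (SE 0.119, adjusted p = 3.94e-05). The rise in R150X (adjusted p = 0.0189) was lost without replicate 2 or 3 of untreated R150X or replicate 1 of R150X with OxLDL, at adjusted p from 0.0692 to 0.104.

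The next enzymes of the serine pathway had smaller differences. Psat1 fell in WT (-0.24) and rose in R150X (0.27), with an interaction of 0.52 (adjusted p = 0.00248). Its fall in WT was lost without replicate 1 of untreated WT or replicate 2 of WT with OxLDL, at adjusted p from 0.0519 to 0.0636. Psph rose in R150X (0.53) and had an interaction of 0.59 (adjusted p = 0.0276), which was lost without any 1 of 5 libraries (replicate 2 of untreated WT, replicate 2 of untreated R150X, replicates 1 and 3 of WT with OxLDL, and replicate 2 of R150X with OxLDL), at adjusted p from 0.0566 to 0.0983. Of its exon bases 10.4% overlap Cct6a on the other strand.

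Pck2, the mitochondrial enzyme that turns oxaloacetate into phosphoenolpyruvate, was at 80.5, 75.8 and 81.3 CPM in untreated WT, 71.0, 66.9 and 72.9 CPM in WT with OxLDL, 68.9, 58.8 and 61.1 CPM in untreated R150X and 74.7, 77.6 and 85.6 CPM in R150X with OxLDL. It rose in R150X (0.33, adjusted p = 0.000329), and the interaction was 0.51 (adjusted p = 0.00119). The fall in WT (-0.17, adjusted p = 0.0363) was lost without replicate 1 or 3 of untreated WT or replicate 1 or 2 of WT with OxLDL, at adjusted p from 0.0676 to 0.155.

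Cth, which makes cysteine from cystathionine, was the member that fell most with OxLDL. It was at 5.71, 5.06 and 5.64 CPM in untreated WT, 1.32, 1.29 and 1.32 CPM in WT with OxLDL, 3.33, 2.37 and 3.19 CPM in untreated R150X and 0.753, 0.572 and 0.852 CPM in R150X with OxLDL. All groups were separate, and R150X was below WT under both conditions, with -0.89 untreated (adjusted p = 0.000622) and -0.85 with OxLDL (SE 0.283, adjusted p = 0.0519), which did not pass. With OxLDL it fell by 75.9% in WT and by 75.3% in R150X (log2 fold changes -2.06 and -2.02), and the interaction of 0.04 (SE 0.392) did not pass. This low level leaves a wide error, and the members of the group that make serine and asparagine did not share its course.

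Of the 3 genes of mitochondrial one-carbon metabolism, which take up the carbon unit that serine gives off, 2 had a higher response in R150X. Mthfd2, the folate dehydrogenase, was at 68.2, 71.9 and 64.9 CPM in untreated WT, 59.3, 56.4 and 52.7 CPM in WT with OxLDL, 77.3, 72.9 and 68.9 CPM in untreated R150X and 84.2, 88.3 and 78.9 CPM in R150X with OxLDL. The genotypes overlapped when untreated (0.09, adjusted p = 0.262) and were separate with OxLDL (0.58, 1.49-fold, adjusted p = 1.4e-06), with an interaction of 0.48 (SE 0.0895, adjusted p = 0.00133). Its rise in R150X (0.20, adjusted p = 0.0145) was lost without replicate 3 of untreated R150X or replicate 2 of R150X with OxLDL, at adjusted p from 0.0808 to 0.0904.

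The other two had their lowest levels in R150X with OxLDL. Shmt2, which splits serine into glycine and a one-carbon unit, was at 71.1, 68.5 and 71.3 CPM in untreated WT, 50.6, 52.0 and 55.3 CPM in WT with OxLDL, 61.0, 55.1 and 59.1 CPM in untreated R150X and 47.4, 48.2 and 48.5 CPM in R150X with OxLDL. It fell with OxLDL in both genotypes (-0.42 and -0.28), and its interaction of 0.14 did not pass. Aldh1l2, which ends the pathway by oxidising the formyl group, was at 39.2, 38.4 and 41.6 CPM in untreated WT, 12.9, 15.4 and 13.7 CPM in WT with OxLDL, 15.8, 17.8 and 20.0 CPM in untreated R150X and 8.97, 9.61 and 8.70 CPM in R150X with OxLDL. Untreated R150X was already 54.9% below untreated WT in the fit, having a log2 fold change of -1.15 (adjusted p = 3.42e-09). It fell with OxLDL in both (-1.51 and -0.98), and the interaction of 0.53 (adjusted p = 0.0202) was lost without replicate 3 of untreated WT, replicate 1 of WT with OxLDL or replicate 2 of R150X with OxLDL, at adjusted p from 0.0544 to 0.0678. Of its exon bases 14.1% overlap D10Wsu102e on the other strand.

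Of the 4 amino acid transporters 3 had a higher response in R150X. Slc7a1, which imports arginine and lysine, was at 65.6, 65.1 and 61.9 CPM in untreated WT, 43.3, 42.3 and 46.5 CPM in WT with OxLDL, 39.4, 51.1 and 51.8 CPM in untreated R150X and 59.8, 58.6 and 64.0 CPM in R150X with OxLDL. Replicate 1 was the lowest of untreated R150X, and all 3 of that group were below untreated WT. OxLDL changed it by -0.54 in WT and 0.35 in R150X, and the interaction was 0.90 (SE 0.112, adjusted p = 2.02e-05).

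Slc7a5 and Slc3a2 encode the light and heavy chains of the leucine exchanger LAT1, and they did not move together. Slc7a5 was at 92.0, 90.8 and 97.4 CPM in untreated WT, 30.3, 32.3 and 31.8 CPM in WT with OxLDL, 68.5, 70.6 and 69.2 CPM in untreated R150X and 32.1, 31.8 and 29.5 CPM in R150X with OxLDL. It fell to one level in both genotypes, where the libraries overlapped (-0.01, adjusted p = 0.93), by 66.4% in WT and 55.2% in R150X, and the interaction was 0.41 (adjusted p = 0.00227). Slc3a2, which also pairs with other light chains, was at 248, 259 and 246 CPM in untreated WT, 299, 281 and 304 CPM in WT with OxLDL, 341, 296 and 296 CPM in untreated R150X and 351, 367 and 387 CPM in R150X with OxLDL. It rose with OxLDL in both (0.23 and 0.25), was higher in R150X under both conditions (0.31 and 0.32), and its interaction of 0.01 did not pass.

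Slc38a2, the glutamine transporter SNAT2, was at 233, 234 and 227 CPM in untreated WT, 207, 204 and 193 CPM in WT with OxLDL, 178, 197 and 198 CPM in untreated R150X and 213, 209 and 194 CPM in R150X with OxLDL. It was lower in untreated R150X (-0.28), fell in WT (-0.20) and had a value of 0.11 in R150X that did not pass. The interaction was 0.30 (adjusted p = 0.0129).

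All 12 synthetases had an interaction above 0, from 0.15 to 0.61 with a median of 0.29, and 8 of them passed with edgeR and 8 with DESeq2. At an unadjusted p under 0.05 edgeR gave 11, and none was below 0. These enzymes load each tRNA with its amino acid. In WT 9 fell with OxLDL and none rose; in R150X 5 rose and 1 fell; with OxLDL 8 were higher in R150X and none lower. DESeq2 gave 9 and none, 5 and 1, and 7 and none, and an unadjusted p under 0.05 in edgeR gave 9 and none, 6 and 1, and 11 and none. In untreated cells 3 were lower in R150X, namely Eprs, Gars and Iars, beside 14.8% of all genes. With OxLDL 23.1% of all genes fell and 22.7% rose in WT, and 18.4% rose and 20.6% fell in R150X. In R150X against WT with OxLDL 6.10% of all genes were higher and 6.92% lower. The interactions of the synthetases were smaller than those of Asns or Trib3.

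Aars, which charges alanine tRNA, had the largest synthetase interaction. It was at 231, 229 and 233 CPM in untreated WT, 154, 164 and 170 CPM in WT with OxLDL, 210, 211 and 216 CPM in untreated R150X and 222, 222 and 241 CPM in R150X with OxLDL. WT with OxLDL was the group that stood apart, below all others. It fell by 29.7% in WT (log2 fold change -0.51, adjusted p = 2.3e-08), had a value of 0.10 in R150X (adjusted p = 0.102), and an interaction of 0.61 (SE 0.0694, adjusted p = 7.47e-06). Its exons share 14.3% of their bases with Exosc6 on the same strand, a gene listed with 0 counts.

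Eprs charges both glutamate and proline tRNAs. It was at 182, 177 and 175 CPM in untreated WT, 147, 151 and 146 CPM in WT with OxLDL, 147, 165 and 164 CPM in untreated R150X and 176, 175 and 184 CPM in R150X with OxLDL. It fell in WT (-0.27) and rose in R150X (0.17, adjusted p = 0.0131), with an interaction of 0.43 (adjusted p = 0.000459). The rise was 0.11 without replicate 1 of untreated R150X (adjusted p = 0.0443), and was lost without replicate 3 of R150X with OxLDL (adjusted p = 0.0595). Its lower level in untreated R150X (-0.17) was lost without replicate 1 of WT (adjusted p = 0.0711).

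Cars, for cysteine, was at 67.1, 61.0 and 59.0 CPM in untreated WT, 53.9, 56.1 and 52.3 CPM in WT with OxLDL, 64.3, 59.9 and 58.8 CPM in untreated R150X and 74.0, 67.6 and 73.2 CPM in R150X with OxLDL. The genotypes overlapped when untreated and were separate with OxLDL (0.40, adjusted p = 9.65e-05), and the interaction was 0.44 (adjusted p = 0.00268). The fall in WT (-0.20) was lost without replicate 1 of untreated WT (adjusted p = 0.0885).

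Gars, for glycine, was at 140, 136 and 132 CPM in untreated WT, 110, 103 and 103 CPM in WT with OxLDL, 120, 116 and 112 CPM in untreated R150X and 117, 114 and 112 CPM in R150X with OxLDL. Iars, for isoleucine, was at 115, 116 and 107 CPM in untreated WT, 90.4, 86.8 and 90.2 CPM in WT with OxLDL, 86.1, 101 and 101 CPM in untreated R150X and 99.4, 100 and 97.3 CPM in R150X with OxLDL. Both fell in WT (-0.37 and -0.34), while their R150X libraries overlapped between treatments (-0.02 and 0.04), and their interactions were 0.36 (adjusted p = 0.00268) and 0.38 (adjusted p = 0.00687). Gars lies 5.97 Mb from Gpnmb on chromosome 6, Mthfd2 34.2 Mb and Asns 41.3 Mb; whether sequence of the donor strain reaches them was not tested.

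Sars and Nars, for serine and asparagine, rose in R150X and showed no change that passed in WT. Sars was at 133, 130 and 129 CPM in untreated WT, 143, 136 and 138 CPM in WT with OxLDL, 145, 132 and 131 CPM in untreated R150X and 177, 179 and 177 CPM in R150X with OxLDL. Nars was at 214, 218 and 209 CPM in untreated WT, 221, 225 and 209 CPM in WT with OxLDL, 224, 209 and 204 CPM in untreated R150X and 257, 257 and 255 CPM in R150X with OxLDL. For both, R150X with OxLDL stood above the other 9 libraries, with rises of 0.39 and 0.27 and interactions of 0.30 (adjusted p = 0.0079) and 0.24 (adjusted p = 0.0315). The Nars interaction was lost without any 1 of 10 libraries, at adjusted p from 0.0524 to 0.0983; it held only without replicate 1 of untreated R150X or replicate 2 of WT with OxLDL.

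The remaining 5 synthetases had interactions from 0.15 to 0.29. Yars, for tyrosine, fell in WT (-0.28) and had an interaction of 0.29 (adjusted p = 0.0421), which was lost without any 1 of 9 libraries, at adjusted p from 0.052 to 0.128; it held only without replicate 1 of untreated R150X, replicate 3 of WT with OxLDL or replicate 1 of R150X with OxLDL. Its higher level in R150X with OxLDL (0.23) was lost without replicate 2 of WT or replicate 2 or 3 of R150X, at adjusted p from 0.0662 to 0.108. Mars, for methionine, rose in R150X (0.31) and was higher there than in WT with OxLDL (0.24), a call lost without replicate 1 or 2 of WT with OxLDL, at adjusted p from 0.0756 to 0.0807. Wars, for tryptophan, fell in both genotypes (-0.37 and -0.22); its higher level in R150X with OxLDL (0.18, adjusted p = 0.0491) was lost without replicate 1 or 2 of WT or any 1 replicate of R150X, at adjusted p from 0.0719 to 0.246. That call was also lost with DESeq2 (adjusted p = 0.0631), with low-count genes left in (0.102), with only the groups compared in the fit (0.0603), and without any 1 untreated library other than replicate 1 of R150X (0.058 to 0.0696). Lars and Tars, for leucine and threonine, fell in WT (-0.24 and -0.32) and had values of -0.04 and -0.11 in R150X that did not pass. The interactions of Mars, Wars, Lars and Tars (0.23, 0.15, 0.20 and 0.22) did not pass.

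Scaled to the length of their merged exons (RPKM, which is CPM per kilobase), the members spanned a wide range in untreated WT. Cebpb (132), Atf3 (118) and Atf4 (81.7) were the highest in RPKM, then Slc3a2 (71.2) and Atf5 (57.3). Nars (49.1) and Gars (43.6) led the synthetases in RPKM, and Yars (9.28), Cars (9.47) and Eprs (9.83) were the lowest of them. The merged length takes in every annotated exon, 18102 bases for Eprs and 3119 for Gars, and these rankings depend on it. By mean CPM in untreated WT, Eprs (178) was above Gars (136). Psph (3.49) and Cth (1.96) were the lowest of the 40 in RPKM. Asns was at 22.8 RPKM and Trib3 at 12.5.

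Other genes of the pathway were described by lists of its known parts, whose counts are to be read beside the shares of all genes. With OxLDL 22.7% of all genes rose and 23.1% fell in WT, and 18.4% rose and 20.6% fell in R150X. In R150X against WT 18.1% were higher and 14.8% lower untreated, and 6.10% and 6.92% with OxLDL. In the interaction 3.13% were higher and 5.19% lower. Of 14 eIF2 kinases and regulators none passed in the interaction with edgeR (median 0.02) or DESeq2, and at an unadjusted p under 0.05 in edgeR 1 was higher and 1 lower. In WT 3 rose and 2 fell with OxLDL, and in R150X 3 rose and 3 fell. Eif2ak2, the kinase PKR that double-stranded RNA activates, had log2 fold changes of -1.32 in WT and -1.16 in R150X, and Eif2s1, the alpha subunit of eIF2, of -0.50 and -0.51. Eif2ak3, the endoplasmic reticulum kinase PERK, rose in both genotypes (0.38 in WT and 0.27 in R150X), as did Eif2ak4, the amino acid sensor GCN2 (0.25 and 0.35). In untreated cells 4 were higher in R150X and 2 lower, and with OxLDL 2 were higher and none lower, with either tool or at an unadjusted p under 0.05.

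Of 22 further ATF4 targets 20 were tested, and their median interaction was 0.24, with 14 above 0 and 6 below. Only 5 passed. Aldh18a1, which starts proline synthesis, had an interaction of 0.66 (adjusted p = 7.63e-05), Ero1a, the oxidase of the endoplasmic reticulum, 0.50 (adjusted p = 0.00015), and Xpot, which exports tRNA from the nucleus, 0.44 (adjusted p = 0.000316). Cebpa (-0.45) and Map1lc3b (-0.33) were lower and are named here after their values were seen. In WT 13 of the 20 fell with OxLDL and 4 rose; in R150X 9 fell and 4 rose. With OxLDL 3 were higher in R150X, namely Slc7a11, the cystine importer (0.51), Slc1a5, a glutamine transporter (0.33), and Xpot (0.24), and 3 were lower, with Bcat1, which starts branched-chain amino acid breakdown, at -0.94. In untreated cells 10 were lower in R150X and 3 higher.

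The remaining synthetases gave other counts than the 12 members. None of the 8 further cytosolic ones passed in the interaction (median -0.14, 2 above 0 and 6 below), and none of 17 mitochondrial ones did (median 0.02), with edgeR or DESeq2. At an unadjusted p under 0.05 in edgeR, 2 of the 8 were lower and none higher, and 1 of the 17 was higher and 1 lower. Kars, for lysine, fell in both genotypes (-0.23 and -0.38) and Qars, for glutamine, rose in both (0.36 and 0.24). The 3 scaffold proteins of the multi-synthetase complex had a median of -0.06, and none passed with either tool or at an unadjusted p under 0.05. Of the 17 on the mitochondrial list 3 rose with OxLDL in WT and 4 in R150X with edgeR, and 2 and 4 with DESeq2. Of all genes 22.7% rose in WT and 18.4% in R150X with edgeR. None of the mitochondrial list fell with either tool, nor at an unadjusted p under 0.05.

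ATF6 and XBP1 act in the other arms of the response to misfolded protein in the endoplasmic reticulum. Their targets, listed together with Atf6, Xbp1 and Ern1 themselves, had a median interaction of -0.05 over 19 genes. Of these, 2 were higher, Ern1 (0.36), which encodes the sensor IRE1, and Sel1l (0.22), an adaptor of protein degradation, and none was lower with edgeR, against 1 with DESeq2 and 3 at an unadjusted p under 0.05 in edgeR. Hspa5, the chaperone BiP, fell with OxLDL in both genotypes (-0.51 and -0.52). In WT 8 fell and 2 rose, and in R150X 10 fell and 5 rose. Whether these lists differ from the 40 members was not tested.

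**Figure D4:**
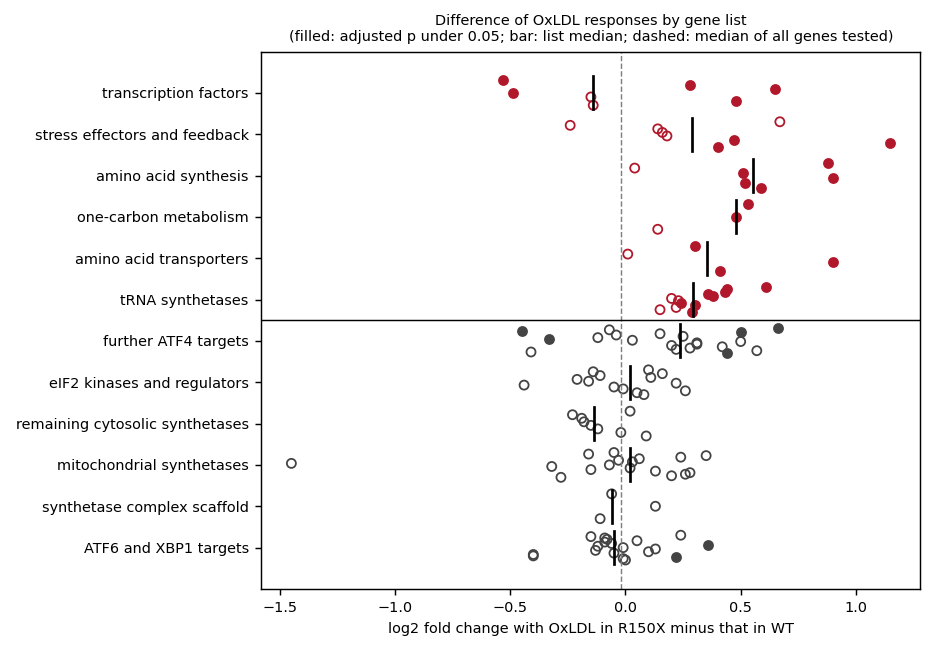
Difference of the OxLDL responses (R150X minus WT, log2) for each gene of the 6 roles among the 40 members (red) and of 6 other lists (grey); filled points passed at an adjusted p under 0.05, bars are list medians and the dashed line is the median of all genes tested. All 12 member synthetases lie above 0, while the further cytosolic and the mitochondrial synthetases lie on both sides of it.

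The spread of single libraries can be read beside the model. In untreated cells the libraries of the genotypes did not overlap for 31 of the 40 members, 27 of which passed the test, and for 46.1% of all genes tested. With OxLDL it was 30 members, of which 24 passed, and 30.0% of all genes. OxLDL and untreated libraries did not overlap for 35 members in WT, of which 34 passed, and 55.9% of all genes. In R150X it was 31 members, of which 28 passed, and 46.4% of all genes. Phgdh in R150X was the 1 member that passed while its libraries overlapped.

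The scaling of the libraries affects these counts, since the scaling factor was 1.05 in each untreated WT library and lower elsewhere. With library size alone, the median of all genes with OxLDL in WT moved from 0.0136 to -0.0999. The share of calls that were higher then moved from 49.6% to 31.6% with OxLDL in WT, from 55% to 36.1% in untreated R150X against WT, and from 37.6% to 66.5% in the interaction. The members' interaction counts were 28 higher and 2 lower under it. Over all genes those calls went from 480 to 878 higher and from 796 to 442 lower. The median interaction of all genes moved from -0.0173 to 0.0741. In WT with OxLDL, the values for Atf4, Pck2, Slc38a2 and Cars became -0.27, -0.29, -0.31 and -0.32, and the rises of Gdf15 and Slc3a2 were lost, at 0.14 (adjusted p = 0.175) and 0.12 (adjusted p = 0.0919). Cebpg in untreated R150X became -0.23, and the rise of Atf4 in R150X was lost, at 0.11 (adjusted p = 0.0815).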

How the data were processed

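Bulk RNA of 12 libraries was analysed, 3 in each of 4 groups. The values are unnormalised read counts per Ensembl gene, as deposited. FastQC, HISAT2, featureCounts and DESeq2 and the builds mm10 and GRCm38 are named in the submitters' processing notes, without versions. RNA was isolated with an RNeasy kit, per the labels' protocols. Which annotation and strand setting served for counting is not given in the sources used here. Reads of overlapping genes and of near-identical copies therefore could not be told apart. Symbols and coordinates came from GENCODE on GRCm38, where 54409 of 54532 identifiers matched. Ddit3 matched 2 identifiers, of which the one with counts was used.

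Low-count genes were removed with filterByExpr by group, which left 15338. All libraries entered a single fit by group with edgeR 4.0.16 under R 4.3.3, with trimmed mean of M-values (TMM) scaling, and 5 contrasts were tested by the quasi-likelihood test. The factors ran from 0.969 to 1.05 and the common biological coefficient of variation was 0.0608. Genes were called at a Benjamini-Hochberg adjusted p under 0.05. "Rose", "fell", "higher" and "lower" of a counted gene mean that it passed. Every adjusted p for a gene is from this test, in this fit or in an alternative fit named beside it, except those given for DESeq2. Those are from DESeq2's own test. SE means the standard error of a fitted log2 fold change. The fit was tested on simulated data for the comparison of untreated R150X with WT alone. The interaction was not simulated.

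The 40 members, the other lists and the markers were chosen with earlier results of these data known. Values in every library are given for Atf4 and, in each role, for the 3 members with the smallest interaction p and the 2 with the smallest p in each other comparison; of each other list up to 3 with the smallest p in a comparison were named. Alternatives were DESeq2 1.42.0, its size factors in edgeR, library size alone, no filter, a replicate block, only the groups compared, and leaving out each library.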

Additional observations from a re-analysis of the deposited data

Results flagged for a closer look

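The OxLDL response differed between R150X and WT for 26 of the 40 members, by the interaction term of edgeR's quasi-likelihood test at an adjusted p under 0.05. The differences below are log2 fold changes with OxLDL in R150X minus those in WT. Among stress effectors they were 1.15 for Trib3, 0.47 for Sesn2 and 0.40 for Vegfa. In amino acid synthesis they were 0.90 for Phgdh, 0.88 for Asns, 0.59 for Psph, 0.52 for Psat1 and 0.51 for Pck2. In one-carbon metabolism they were 0.53 for Aldh1l2 and 0.48 for Mthfd2. The transporters stood at 0.90 for Slc7a1, 0.41 for Slc7a5 and 0.30 for Slc38a2. The synthetases stood at 0.61 for Aars, 0.44 for Cars, 0.43 for Eprs, 0.38 for Iars, 0.36 for Gars, 0.30 for Sars, 0.29 for Yars and 0.24 for Nars. Of the transcription factors, Atf5 was at 0.65, Ddit3 at 0.48, Atf4 at 0.28, Cebpb at -0.49 and Atf3 at -0.53. No group had enough libraries for a test of single outlying libraries.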

How the results depend on the processing

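Of 2600 member values recomputed under the alternatives, a left-out library counting only for comparisons that use it, 2473 kept their direction and their side of the threshold, 93 no longer passed, 34 newly passed and none that passed reversed. The unchanged values include 44 that passed under neither setting and changed sign. Members falling in WT and rising in R150X with OxLDL numbered 11, and 7 to 12 when 1 library was left out. Members lower in the interaction numbered 2, 1 with DESeq2, under which Cebpb no longer passed, and 1 to 2 without 1 library. Members that rose with OxLDL in WT numbered 5, and 3 with library size alone, while over all genes such calls went from 3481 to 2244. Without 1 library, those higher in the interaction ran from 20 to 25, and those lower in untreated R150X and higher in R150X with OxLDL from 6 to 11. With a replicate block the interaction gave 24 higher and 2 lower, OxLDL 5 and 29 in WT and 21 and 8 in R150X, and genotype 6 and 23 untreated and 21 and 4 with OxLDL. Deviations of same-numbered libraries from their group means correlated at -0.04 to 0.16, and no pair of groups had every correlation above 0.1. Whether the replicate numbers pair the libraries was not settled by this, since differently numbered libraries were not compared. The interaction was not refitted on fewer groups, since it needs all 4. Differences near the 0.05 threshold, such as those of Nars, Yars and Wars, are limited by 3 libraries a group.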
